A study of Rattus norvegicus with 6 samples.

Results

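Genes of metal binding and antioxidant defence, 10 in all, were followed in rat pancreas with acute pancreatitis (AP) and without it. They were the metallothioneins Mt1 and Mt2A, the haem oxygenase Hmox1, the NRF2 target genes Nqo1, Gclc, Gclm, Txnrd1 and Srxn1, and the superoxide dismutases Sod2 and Sod1. Members were the non-control array probes whose RefSeq accession belongs to one of these symbols. This gave 10 genes with 1 probe and 1 spot each, of 13903 named genes and 24684 non-control probes on the array. All 10 passed the filter on dim probes (3 or more of the 6 scans had to be well above background). With outlier-marked spots left out, 8 had a value well above background on all 6 scans. The exceptions were Srxn1, whose signal was not well above background on the 3 scans labelled AP, and Mt2A. Srxn1 thus passed through its control scans alone, and its lower call rests on a fitted value. The Mt2A spot on the first control array was bright, but it carried an outlier mark and was left out. On the arrays labelled AP 7 of the 10 genes were lower, 1 was higher and 2 did not pass the threshold (limma, adjusted p below 0.05), while of all 8732 genes tested 31.9% were lower, 24.1% higher and 56.0% called in either direction.

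Metallothioneins are small cysteine-rich proteins that bind zinc and copper; the zinc-sensing factor MTF1 drives them through metal response elements, and glucocorticoids and inflammatory cytokines also raise them. NRF2 (gene Nfe2l2) is held in check by KEAP1 and, once released by electrophiles or oxidants, binds antioxidant response elements together with small MAF proteins, while BACH1 represses some of the same sites. In experimental pancreatitis oxidants are formed early in the gland, and these genes are commonly read as markers of that stress.

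The AP group held male rats of 6 weeks that received 1 mL/kg of 4% sodium taurocholate, a bile salt, backwards through the pancreatic duct and were killed 9 h later. The control group held male rats of 6 weeks; the labels do not say whether they had a sham injection, and they name no strain. RNA of whole pancreas was depleted of ribosomal RNA, labelled with Cy3 by random priming and hybridised to 1-colour Agilent arrays, with 3 deposited scans per group. In such bulk tissue fewer cells of a type and less RNA per cell cannot be told apart.

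The 250 bases before the start of Mt1, Mt2A, Srxn1, Txnrd1 and Gclm are shown. Each window holds a motif searched for. Of these genes 4 fell and Gclm did not pass. The window of Sod2, which also fell, holds a motif as well and is not shown. Sequences are from RefSeq, build GRCr8, read 5′ to 3′ on the gene's strand. Capitals mark the metal response element core (TGCACNC or TGCGCNC), the antioxidant response element core (TGACNNNGC) or the AP-1 site (TGAGTCA), each on either strand.
Mt1 (chr19:10832976-10833225, minus strand): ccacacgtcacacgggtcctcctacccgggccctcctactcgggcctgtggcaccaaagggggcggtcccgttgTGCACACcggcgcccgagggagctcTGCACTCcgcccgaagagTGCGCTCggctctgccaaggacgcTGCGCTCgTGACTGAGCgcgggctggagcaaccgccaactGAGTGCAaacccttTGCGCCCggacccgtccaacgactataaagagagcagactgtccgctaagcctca
Mt2A (chr19:10838709-10838958, minus strand): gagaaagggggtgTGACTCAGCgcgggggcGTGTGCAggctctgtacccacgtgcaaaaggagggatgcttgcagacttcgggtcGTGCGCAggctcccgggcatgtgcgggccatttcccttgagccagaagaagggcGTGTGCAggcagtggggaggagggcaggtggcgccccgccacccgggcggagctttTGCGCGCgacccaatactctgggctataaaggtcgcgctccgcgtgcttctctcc
Srxn1 (chr3:161064562-161064811, plus strand): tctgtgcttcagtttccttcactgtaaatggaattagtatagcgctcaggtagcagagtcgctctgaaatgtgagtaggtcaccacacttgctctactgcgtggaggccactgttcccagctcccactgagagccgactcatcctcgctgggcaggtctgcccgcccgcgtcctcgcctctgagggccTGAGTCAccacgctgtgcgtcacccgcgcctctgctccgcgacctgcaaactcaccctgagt
Txnrd1 (chr7:22755905-22756154, minus strand): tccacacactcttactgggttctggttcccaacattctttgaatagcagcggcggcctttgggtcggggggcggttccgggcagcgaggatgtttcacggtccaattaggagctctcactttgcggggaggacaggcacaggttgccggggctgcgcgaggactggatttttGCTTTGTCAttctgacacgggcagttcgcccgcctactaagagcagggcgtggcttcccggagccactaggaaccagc
Gclm (chr2:213031885-213032134, plus strand): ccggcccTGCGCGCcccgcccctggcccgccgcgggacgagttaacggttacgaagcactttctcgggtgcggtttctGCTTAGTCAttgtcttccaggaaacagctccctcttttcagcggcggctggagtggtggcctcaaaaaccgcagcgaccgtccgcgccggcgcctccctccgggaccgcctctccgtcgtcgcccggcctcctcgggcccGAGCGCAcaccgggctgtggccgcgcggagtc

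Mt1 and Mt2A are neighbours on chromosome 19. The Mt1 window held 6 metal response element cores and the Mt2A window 4; of 33469 rat promoter windows of the same length, 0.0269% held 6 or more and 0.266% held 4 or more. The cores nearest to the start began at -55 in both genes. Each window also held 1 antioxidant response element core, at -101 in Mt1 and at -237 in Mt2A, where it overlaps an AP-1 site. The Srxn1 window held an AP-1 site at -62 and no antioxidant response element core. Gclm held a core of that element at -172 and 2 metal response element cores, and 1 of the 2 Txnrd1 starts in the table, the one shown, held one at -78. The Sod2 window held 1 as well, at -35. Among all windows 10.1% held an antioxidant response element core, 20.6% a metal response element core and 4.05% an AP-1 site. The windows of Gclc, Sod1 and Nqo1 held none of these letters, which says nothing about sites elsewhere. Hmox1 was not matched in the promoter table.

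The files showed 4 arrays behind the 6 scans. AP scans 2 and 3 came from a single array, and the same held for control scans 2 and 3: spot deviations from the mean of their probe correlated with r of at least 0.992 in these 2 pairs and with 0.192 to 0.742 in the other 13 (across 1650 spots, which are not replicates), and both scans of a pair came from the same slide position. Scans of an array were therefore averaged, and every test compared 2 arrays with 2, except for Mt2A. All 4 arrays shared 1 slide, and each group held its own 2 positions on it, so position and group cannot be told apart. The 75th percentile of signal was 70.1 to 77.7 on AP scans and 140 to 147 on control scans. Each value is a log2 signal relative to that percentile of its array, which took out a difference of -0.96 (AP minus control), so a rise of less than 0.96 has the opposite sign without scaling. Acinar markers were looked at for the labelled tissue. Of 17 listed 13 were tested, 8 were higher on AP arrays and 0 lower. The one with the highest mean signal over all arrays, the protease gene Ctrc, stood at 4.19 on AP arrays and 3.93 on control arrays. On control arrays the tested acinar markers ran from -2.10 (Bhlha15) to 4.03 (Cela3b). The adipocyte gene Fabp4 (7.65) and the globin gene Hbb-b1 (9.60) stood above all of them there. On AP arrays Hbb-b1 (4.82) and the duct marker Slc4a4 (4.45) also stood above every tested acinar marker, while Fabp4 (2.43) did not. Which tissue was on the arrays was not tested. Of the neutrophil markers 5 of 6 tested were lower on the arrays labelled AP and 0 higher, which is not what the label of an inflamed gland leads one to look for. Whether the labels are right was not tested, and every direction below follows them.

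Both metallothioneins fell on the arrays labelled AP. The scanner signal of Mt1 was 1597, 1311 and 1370 on AP scans 1 to 3, against 48732, 48116 and 48143 on control scans 1 to 3. The ranges were far apart and the spread within either group was small. In log2 relative to the 75th percentile, Mt1 stood at 4.29 ± 0.10 on AP arrays and 8.38 ± 0.02 on control arrays (SD, n = 2 arrays each). That was 17.1-fold lower (log2 fold change -4.09 ± 0.10, SE, limma adjusted p = 0.000626). Mt2A had a signal of 1389, 1131 and 1174 on AP scans, against 63485 (spot marked as not uniform), 71683 and 74185 on control scans. No AP scan came near a control scan, with or without the marked spot. The fit left out that spot, so its control value rests on 1 array and its spread was taken from the AP arrays: the log2 level was 4.08 ± 0.11 on AP arrays (SD, n = 2) and 8.99 on 1 control array, 30.1-fold lower (-4.91 ± 0.15, limma adjusted p = 0.00173). With the marked spot kept, the log2 fold change was -4.80. The probe sequences were not used here, so signal shared between these 2 similar transcripts was not tested.

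Hmox1, which breaks haem down to biliverdin, iron and carbon monoxide, fell as well. Its signal was 220, 170 and 178 on AP scans, against 5278, 5580 and 6035 on control scans. All AP values lay below all control values. The log2 level was 1.39 ± 0.16 on AP arrays and 5.25 ± 0.13 on control arrays (SD, n = 2 each), 14.6-fold lower (-3.86 ± 0.14, limma adjusted p = 0.000757).

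**Figure D1:**
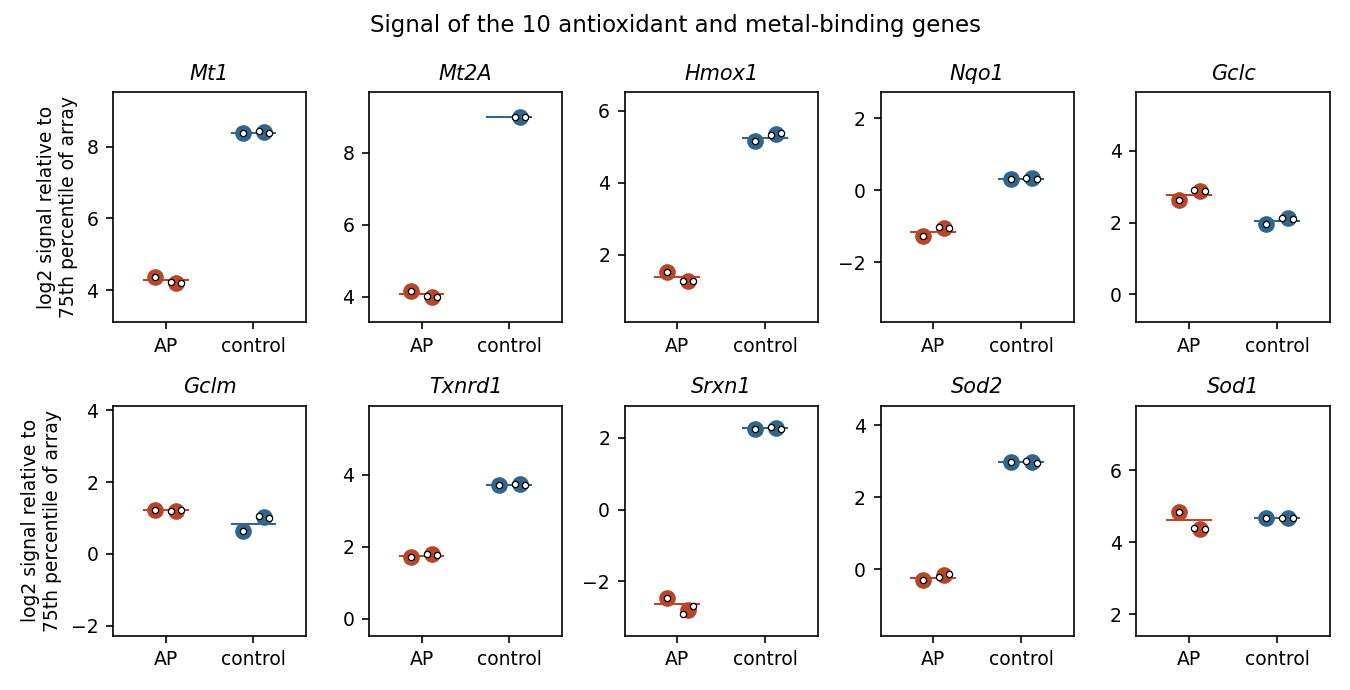
Log2 signal of each gene relative to the 75th percentile of its array, AP on the left and control on the right of each panel; large points are arrays, small white points are scans, lines are group means, and every panel spans the same number of log2 units. Mt1 sits at 4.22 and 4.36 on AP arrays and at 8.37 and 8.39 on control arrays, while the 2 groups of Sod1 overlap.

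The next 3 members, the NRF2 targets Srxn1, Txnrd1 and Nqo1, were all lower. Srxn1, the sulfiredoxin that repairs over-oxidised peroxiredoxins, had a signal of 14.1, 9.37 and 11.4 on AP scans, none well above background, against 700.5, 686 and 689 on control scans. The gene was thus measured on control arrays only, at a log2 level of 2.26 ± 0.01 (SD, n = 2), and the AP level is a bound. The fitted log2 fold change was -4.89 (limma adjusted p = 0.000698), and it rests on AP signals that were not well above background. Against the lowest signal well above background on each AP array, or its own signal where higher, Srxn1 was at least 26.6-fold lower on AP arrays. That bound, like each written as "at least", holds for the scanner's background subtraction: under the 2 normexp settings the log2 fold change of Srxn1 was -2.31 and -2.33, a smaller fall than the bound. Txnrd1, the cytosolic thioredoxin reductase, had a signal of 253, 244 and 252 on AP scans, against 1938, 1886 and 1925 on control scans. It was 3.95-fold lower, at 1.75 ± 0.06 on AP arrays and 3.73 ± 0.01 on control arrays (SD, n = 2 each; -1.98 ± 0.10, limma adjusted p = 0.00109). Nqo1, a quinone reductase often used as the readout of NRF2 activity, was dimmer: its signal was 32.1, 34.3 and 35.6 on AP scans, against 183.5, 178 and 182 on control scans. It was 2.79-fold lower, at -1.16 ± 0.16 on AP arrays and 0.32 ± 0.01 on control arrays (SD, n = 2 each; -1.48 ± 0.12, limma adjusted p = 0.00304). Its call was lost when normexp was used for the background before the same scaling (-0.56, adjusted p = 0.120).

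The 2 subunits of glutamate-cysteine ligase, which makes the first step of glutathione synthesis, were not called lower. Gclc, the catalytic subunit, had a signal of 484, 522.5 and 545 on AP scans, against 574.5, 614.5 and 627 on control scans. Its raw signal was thus slightly lower on every AP scan, and it was higher only relative to the dimmer AP arrays: 2.76 ± 0.18 on AP arrays and 2.04 ± 0.11 on control arrays (SD, n = 2 each), 1.65-fold higher (0.72 ± 0.14, limma adjusted p = 0.0194). Without scaling the log2 fold change was -0.23 (adjusted p = 0.172), and the call was also lost with normexp before the same scaling (0.29, adjusted p = 0.434) and without control array 1 (adjusted p = 0.0868), control array 2 (0.0682) or AP array 2 (0.0668). Gclm, the modifier subunit, had a signal of 181, 159 and 173 on AP scans, against 228, 291 and 294 on control scans. The log2 levels were 1.21 ± 0.01 on AP arrays and 0.83 ± 0.29 on control arrays (SD, n = 2 each), and the difference did not pass (0.38 ± 0.17, limma adjusted p = 0.142). Leaving the arrays unscaled gave a lower call for Gclm (-0.57, adjusted p = 0.0455), and it was higher under normexp with quantile normalization (0.41, adjusted p = 0.0231).

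The 2 intracellular superoxide dismutases differed from each other. Sod2, the manganese enzyme of mitochondria, which NF-kappaB raises in response to cytokines, had a signal of 63.2, 60.2 and 67.4 on AP scans, against 1166, 1119 and 1133 on control scans. It was 9.30-fold lower, at -0.24 ± 0.09 on AP arrays and 2.98 ± 0.01 on control arrays (SD, n = 2 each; -3.22 ± 0.10, limma adjusted p = 0.000698). Sod1, the copper and zinc enzyme of the cytosol, had a signal of 2225, 1462 and 1517 on AP scans, against 3750, 3564 and 3713 on control scans. Relative to the 75th percentile the groups overlapped: 4.61 ± 0.33 on AP arrays and 4.67 ± 0.002 on control arrays (SD, n = 2 each; -0.06 ± 0.19, limma adjusted p = 0.803). The 2 AP arrays lay 0.47 apart in log2, the widest gap between arrays of a group among the members, and without scaling Sod1 was lower (-1.02, adjusted p = 0.0208). Without AP array 2 its log2 fold change was 0.17.

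Of all genes tested 2784 were lower and 2107 higher on AP arrays. Without scaling these were 5452 and 463, and with normexp before the same scaling 1404 and 563. The median log2 fold change was -2.60 over the members, with Srxn1 at its fitted value, and -0.03 over all genes. Among the members, 2 scans of 1 array differed by 0.0032 to 0.21 in log2 and 2 arrays of a group by 0.0028 to 0.47. The 7 genes that fell did so by at least 1.48, more than any such gap. Ordered by log2 fold change, lowest first, the members were Mt2A, Srxn1, Mt1, Hmox1, Sod2, Txnrd1, Nqo1, Sod1, Gclm, Gclc, with Srxn1 placed by its fitted value, which is not a measured level. The gap between Mt2A and Srxn1 (0.02) lay within their combined SE (0.22). The gaps between Mt1 and Hmox1 (0.23 against 0.17), Gclm and Gclc (0.34 against 0.22) and Sod1 and Gclm (0.45 against 0.26) were less than 2 times it, and the gaps between all other neighbours were larger. These SEs treat members as independent although they share the arrays.

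**Figure D2:**
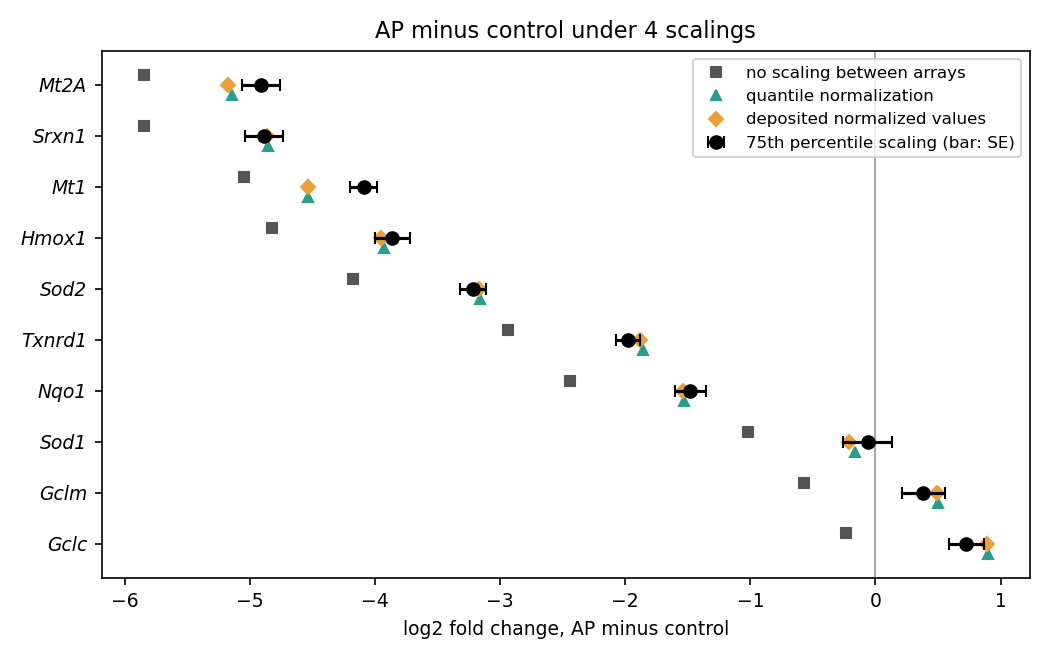
Log2 fold change, AP minus control, of each gene with 75th percentile scaling (black points, bars are the SE of the limma fit), without scaling, after quantile normalization and from the deposited normalized values. The 7 genes from Mt2A to Nqo1 lie left of 0 under all 4; Gclc and Gclm lie right of 0 under 3 of them and left of it without scaling; the point of Srxn1 is a fitted value below background on the AP side.

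Differences between 2 members on the same array do not depend on a shift of the whole array, such as the scaling used. They can change with quantile normalization or with another way to subtract background. Srxn1 minus Txnrd1 was -4.17 and -4.58 on the AP arrays, against -1.47 and -1.47 on the control arrays, with the AP side of Srxn1 below background. Sod2 minus Sod1 was -5.14 and -4.55 on AP arrays and -1.68 and -1.69 on control arrays. In both pairs the difference was lower on both AP arrays than on both control arrays. With normexp before the same scaling, Srxn1 and Txnrd1 had log2 fold changes of -2.31 and -2.01, so the gap between them was small. Sod2 and Sod1 had -2.41 and -0.52 under that setting. Gclc minus Gclm was 1.42 and 1.69 on AP arrays and 1.34 and 1.09 on control arrays, a difference of 0.34 with groups that lay close together. Mt1 minus Mt2A was 0.20 and 0.22 on AP arrays and -0.60 on the 1 control array with both values. With 2 arrays per group these are descriptions without a test.

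Of 11 NRF2 regulators tested 5 were lower and 1 higher (median -0.36). Nfe2l2, the gene of NRF2 itself, was 2.44-fold lower, at 0.44 on AP arrays and 1.72 on control arrays (-1.29 ± 0.11, SE, n = 2 each, limma adjusted p = 0.00309). Its partner genes Mafg and Mafk were lower as well, 4.18-fold (-2.06 ± 0.12, limma adjusted p = 0.00146) and 2.74-fold (-1.46 ± 0.11, limma adjusted p = 0.00234). Under the 2 normexp settings these log2 fold changes were smaller, with the calls kept. Nfe2l2 had -1.03 and -0.79, Mafg -1.22 and -1.16, and Mafk -1.07 and -0.83. Keap1 had a level of -1.54 on AP arrays and -1.70 on control arrays (0.16 ± 0.48, limma adjusted p = 0.801), and without control array 1 it was called higher (0.80, adjusted p = 0.0371). Bach1 had -0.35 on AP arrays and -1.02 on control arrays (0.67 ± 0.31, limma adjusted p = 0.149). Btrc, a subunit of a ubiquitin ligase that can mark NRF2 for degradation, was 2.85-fold higher (1.51 ± 0.34, limma adjusted p = 0.0290), and lost its call without control array 1 (adjusted p = 0.116) or 2 (0.122), without scaling (0.179) and without the filter on dim probes (0.0530). The related factor gene Nfe2l1 was at least 1.22-fold lower, with its AP level below background, and its direction turned with normexp before the same scaling (0.090, adjusted p = 0.817). Maff and the metal regulator Mtf1 did not pass the filter on dim probes.

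Other genes of these pathways were taken from 7 lists that were chosen with earlier results of these data known. Of 155 listed genes besides the members, 114 were tested; 58 were lower (50.9%), 18 higher (15.8%) and 38 did not pass, against 31.9% lower and 24.1% higher over all genes. The filter on dim probes let a gene pass through the scans of a single group, here and over all genes. The lower calls of Me1, Nfe2l1, Pon3, Ncf4, Akr1b8, Slc39a5 and Gsk3b rest on fitted AP levels at background. The higher call of Slc30a8 rests on a fitted control level at background. For these genes only a bound was measured. The median log2 fold change of the 114 tested genes was -0.67. Without scaling 90 were lower and 2 higher.

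Of 15 other genes of metal handling 8 were lower and 4 higher (median -0.67). The zinc importers Slc39a14 and Slc39a8 were 14.4-fold and 5.80-fold lower (log2 -3.84 ± 0.10 and -2.53 ± 0.11), with Slc39a8 at -1.45 and -1.38 under the 2 normexp settings. Slc30a8, the zinc transporter of insulin granules, was at least 6.19-fold higher, with its control level below background; under the 2 normexp settings its log2 fold change was 0.83 and 0.44, less than that bound. The vesicle transporter Slc30a2 was 1.68-fold higher, a direction that turns without scaling (-0.21) and a call lost with normexp before the same scaling (adjusted p = 0.353) and without control array 1 (0.0545) or 2 (0.0585). Mt3 and Mt4 did not pass the filter.

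Of 16 other genes of haem and iron handling 11 were lower and 3 higher (median -1.35). Blvrb, a flavin and biliverdin reductase, was 7.12-fold lower, at -1.47 on AP arrays and 1.36 on control arrays, with a log2 fold change of -1.26 and -1.23 under the 2 normexp settings. Blvra, which reduces the biliverdin that haem oxygenase forms, had 1.62 on AP arrays and 1.65 on control arrays and did not pass (limma adjusted p = 0.916); it was picked after its values were seen. Aco1, the cytosolic aconitase that also serves as an iron sensor, was 5.27-fold lower. The ferritin chains Fth1 and Ftl1, which store the iron that haem oxygenase releases, were 4.66-fold and 4.51-fold lower; they were picked after their values were seen. The iron exporter Slc40a1 and the ferrireductase Steap3 were higher (0.93 and 0.86), and both directions turn without scaling (-0.023 and -0.095). With normexp before the same scaling both calls were lost (adjusted p = 0.259 for Slc40a1 and 0.257 for Steap3), and that of Steap3 was also lost under quantile normalization (0.17, adjusted p = 0.314) and with the deposited values (0.15, adjusted p = 0.357). Hmox2, the constitutive haem oxygenase, had -0.56 on AP arrays and -0.23 on control arrays and did not pass (limma adjusted p = 0.0760).

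**Figure D3:**
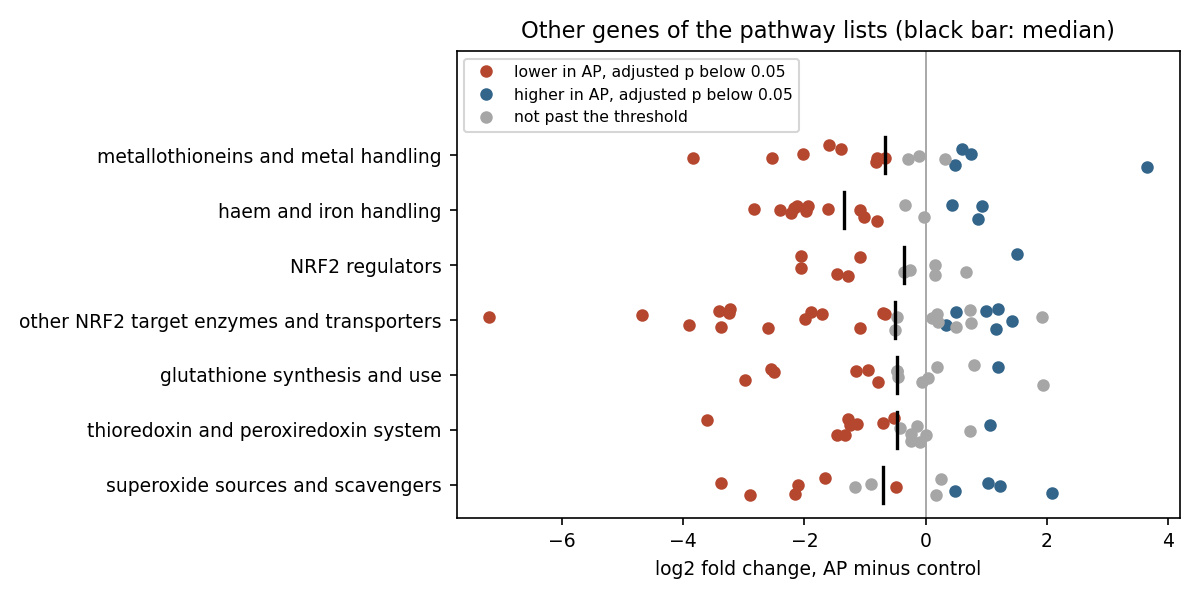
Log2 fold change, AP minus control, of each tested gene of the 7 pathway lists without the members; colour gives the call and the black bar the median of the list. The medians lie between -1.35 (haem and iron handling) and -0.36 (NRF2 regulators).

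Of 29 other NRF2 target enzymes and transporters 14 were lower and 6 higher (median -0.51). Me1, the malic enzyme that makes NADPH, was below background on AP arrays and at least 82.8-fold lower, although under the 2 normexp settings its log2 fold change was -3.52 and -3.57, less than that bound. Mgst1, a microsomal glutathione transferase, was 25.6-fold lower (1.73 on AP arrays, 6.41 on control arrays). Slc7a11, the cystine importer that feeds glutathione synthesis, was 2.28-fold higher (1.19 ± 0.16, limma adjusted p = 0.00821) and Gstm3 2.67-fold higher (1.42 ± 0.33, limma adjusted p = 0.0306). Both calls were lost without scaling (adjusted p = 0.252 and 0.231). That of Slc7a11 was lost with normexp before the same scaling (0.123), and that of Gstm3 without control array 1 (0.107) or 2 (0.136), without the filter on dim probes (0.0556) and with the replicate block (0.0574). Of 15 other genes of glutathione synthesis and use 6 were lower and 1 (Slc7a11) higher (median -0.46). The peroxidase Gpx8 and the glutaredoxin Glrx were 7.92-fold and 5.84-fold lower (log2 -2.99 and -2.55), with Gpx8 at -1.88 and -1.76 under the 2 normexp settings.

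Of 16 other genes of the thioredoxin and peroxiredoxin system 8 were lower and 1 higher (median -0.47). The peroxiredoxins Prdx5 and Prdx3 were 12.3-fold and 2.75-fold lower, and Msrb2, a methionine sulfoxide reductase, was 2.09-fold higher (1.07), with its call lost without scaling (adjusted p = 0.587) and with normexp before the same scaling (0.134). Of 14 other superoxide sources and scavengers 6 were lower and 4 higher (median -0.70). Sod3, the extracellular superoxide dismutase, was 7.45-fold lower (-2.90 ± 0.18, limma adjusted p = 0.00179), and Pon3, a lactonase, at least 4.99-fold lower, a call lost with normexp before the same scaling (-0.35, adjusted p = 0.347). Genes of the NADPH oxidase of white blood cells went both ways. Rac2 and Ncf1 were 4.24-fold and 2.34-fold higher, the call of Ncf1 lost without scaling (adjusted p = 0.0949) and with normexp before the same scaling (0.131). Of the other subunits, picked after their values were seen, Ncf4 was at least 1.49-fold lower, with its AP level below background. Its fitted log2 fold change was -2.11 (limma adjusted p = 0.00239). Cyba did not pass (0.17 ± 0.11, limma adjusted p = 0.238).

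Markers of some other cell types were lower on AP arrays and those of T and B cells were higher. Their part in the results was not tested. In units of the 75th percentile, 9 adipocyte markers summed to 17.2 and 17.4 on AP arrays, against 460 and 464 on control arrays, and 7 of the 9 tested were lower with the fatty acid carrier gene Fabp4 the brightest. The 9 erythroid markers with a probe, most of them globin signal, summed to 59.4 and 59.6 on AP arrays and 1410 and 1533 on control arrays, with 8 lower and 1 higher. The 9 neutrophil markers summed to 2.78 and 3.64 on AP arrays and 37.6 and 40.6 on control arrays; 6 of them, S100a8, Csf3r, Fpr1, Ngp, Camp and Mmp8, were at background on AP arrays and 3, Fpr1, Ngp and Mmp8, on control arrays. The 5 fibroblast markers with complete values summed to 18.9 and 22.05 on AP arrays and 77.0 and 78.5 on control arrays, and 6 of 7 tested were lower. The 10 T and B cell markers summed to 38.0 and 39.2 on AP arrays and 3.54 and 4.17 on control arrays, with 8 of 9 tested higher.

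Macrophage and acinar sums differed less. The 9 macrophage markers, cells known to express Hmox1, summed to 40.1 and 41.3 on AP arrays and 39.6 and 40.2 on control arrays, with 2 of 9 tested lower and 2 higher and the haemoglobin receptor gene Cd163 at background in both groups. The 15 acinar markers summed to 93.9 and 104 on AP arrays and 79.6 and 80.3 on control arrays, with Ptf1a and Rbpjl at background in both. The 7 duct markers summed to 24.5 and 30.6 on AP arrays and 21.5 and 21.98 on control arrays, with 3 lower and 1 higher of 6 tested, and with Krt18, Cftr and Car2 at background on AP arrays and Cftr on control arrays. Most of that sum on AP arrays was the bicarbonate transporter gene Slc4a4 (4.45 on AP arrays, 2.06 on control arrays), and the other 6 summed to 5.35 and 5.61 on AP arrays and 17.3 and 17.8 on control arrays. The 8 islet markers summed to 4.21 and 4.82 on AP arrays and 8.50 and 10.3 on control arrays, with 2 lower and 1 higher of 5 tested. Without the insulin gene Ins1 the other 7 summed to 1.73 and 1.84 on AP arrays and 1.74 and 2.22 on control arrays. Much of that remainder was near background: Ins2, Gcg, Iapp and Chga were at background on AP arrays, and Gcg, Chga and Slc30a8 on control arrays. Ins2 was lower and Slc30a8 higher. The 4 endothelial markers summed to 1.54 and 1.57 on AP arrays and 2.48 and 2.74 on control arrays, with Pecam1 and Cdh5 at background on AP arrays and Cdh5 on control arrays.

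**Figure D4:**
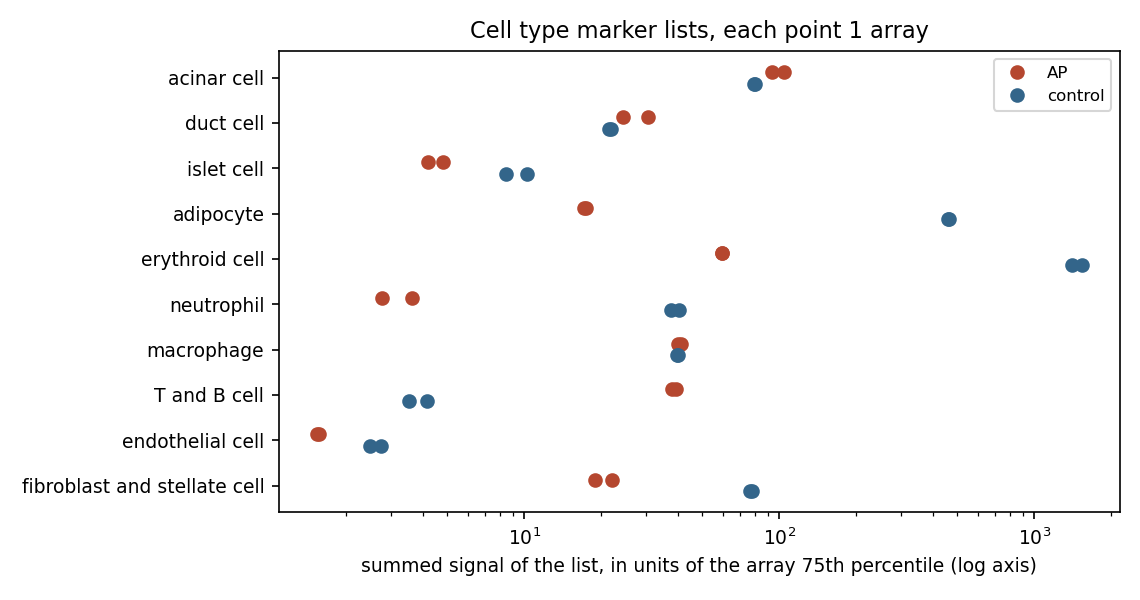
Summed signal of each cell type marker list in units of the 75th percentile of the array, on a log axis; each point is 1 array, AP drawn above control. Adipocyte, erythroid and neutrophil sums are lower on AP arrays, T and B cell sums are higher, and macrophage sums lie together.

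Nearest patterns were taken by the root mean square difference between array values, each gene centred on its own mean, over 4 arrays and 8681 genes with complete values; with 2 groups this measure mostly reflects the size of the group difference. Nearest to Mt1 were Cebpb, an acute phase transcription factor gene (0.036), Mmd (0.044) and the globin gene Hba-a1 (0.052). The match of Hba-a1 depended on the background subtraction. Its log2 fold change was -2.36 and -2.26 under the 2 normexp settings, against -4.44 and -4.45 for Mt1. Cebpb had -3.87 and -3.67 there, and Mmd -4.03 and -3.84. Nearest to Hmox1 were Apold1 (0.039), which was not well above background on the 3 AP scans, so that its distance is not a measured one, the carbonyl reductase gene Cbr3 (0.057) and Il1b, the gene of interleukin 1 beta (0.074). Under the 2 normexp settings Cbr3 had -2.52 and -2.38 and Il1b -3.51 and -3.31, against -3.59 and -3.36 for Hmox1. Nearest to Gclc were Aadat (0.014), Macroh2a1 (0.022) and Wnt8a (0.030), all 3 of which, like Gclc, have the opposite sign without scaling.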

How the data were processed

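Per the file headers, the authors' images went through Agilent Feature Extraction 11.0.1.1; the deposited intensity of a spot is background-subtracted and detrended over the array, and arrays are not scaled to each other. The deposited normalized table is in log2; no source used here names its tool. Groups came from the labels. Control spots and spots marked as uniformity or population outliers were left out, replicate spots were averaged in log2, the 75th percentile of the array was subtracted, and scans of 1 array were averaged. Probes (13220) were fitted in limma 3.58.1 under R 4.3.3 with eBayes, AP against control, two-sided, with Benjamini and Hochberg adjustment; a call is an adjusted p below 0.05. The scanner files used here hold median, not mean, spot signals, so normexp (offset 50) used those. Symbols came from a GRCr8 RefSeq table (14294 probes named), and the brightest tested probe stood for a gene. Motif windows were searched with Python 3.11.15.

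The members, lists and tests were chosen with earlier results of these data known. Named by rule besides the members were 6 regulators, up to 2 called genes each way per list, the brightest gene of some marker lists, and the 3 nearest patterns of Mt1, Hmox1 and Gclc. Outside these rules Hmox2, Blvra, Fth1, Ftl1, Ncf4, Cyba, Mt3, Mt4 and further cell type markers were also named. The fit was tested on simulated data. Arrays 1 and 2 of the groups share only a number: their differences correlated at -0.21 over 13149 probes. Precision is limited by how many arrays there were.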

Additional observations from a re-analysis of the deposited data

How the results depend on the processing

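Over 18 other settings Mt1, Mt2A, Hmox1, Txnrd1, Srxn1 and Sod2 kept their direction and call wherever they could be tested; Mt2A gave no value without control array 2 and neither Mt2A nor Srxn1 passed the filter for all 6 scans. Replicate 2 of a group stands for its array with both scans. Of 177 recomputed member values 167 kept direction and call. That count includes settings that could not move the log2 fold change of a gene with 1 probe, only its adjusted p. These were the mean over probes, no filter or a stricter filter on dim probes, and the robust variance trend. The replicate block could not move it either for a member with values on all 4 arrays, which holds for every member but Mt2A. Mt2A had no value on control array 1, so leaving that array out kept its -4.91. The count of lower members was 5 (of 8 tested, all 6 scans well above background) to 9 (no scaling), and 7 with the replicate block. The count of higher members was 0 without scaling and with normexp before the same scaling, 2 under normexp with quantile normalization, and 0 to 1 with any array left out. Without scaling Gclc (-0.23) and Gclm (-0.57) reversed, and with an array left out Sod1 ran between -0.30 and 0.17, reversed without AP replicate 2. Of the pathway genes 90 were lower and 2 higher without scaling, 6 higher with normexp before the same scaling, 28 higher with 6 scans as separate replicates, and 8 to 15 higher with an array left out. The next count left out Hmox2, Blvra, Ncf4, Cyba and genes named only as cell type markers. Among 39 other named genes 12 of 697 values reversed. Those without scaling were Slc30a2 (-0.21), Steap3 (-0.095), Slc40a1 (-0.023), Keap1 (-0.80), Bach1 (-0.29), Aadat (-0.26), Macroh2a1 (-0.21) and Wnt8a (-0.20). Keap1 also did under quantile normalization (-0.028) and with the deposited values (-0.031), and ran between -0.48 and 0.80 with an array left out; Nfe2l1 reversed with normexp before the same scaling (0.090). Under at least 1 of the 2 normexp settings the log2 fold change was over 1.5 times smaller, or reversed, for 4 of the 10 members (Nqo1, Gclc, Gclm and Srxn1) and 26 of the 39 other named genes; Apold1 was -0.75 and -0.94, against -3.59 and -3.36 for Hmox1. Over all genes, 2784 lower and 2107 higher with the scaling used, the calls were 5452 lower and 463 higher without scaling, 1404 and 563 with normexp before the same scaling, 2507 and 3297 without the filter on dim probes, and 1873 to 2344 lower and 1259 to 1643 higher with an array left out, fewest without control replicate 2. The median over all genes moved to -0.99 without scaling and 0.12 with normexp before the same scaling. A crossed replicate block, chosen after seeing the data, gave 7 lower and 1 higher member. Where an alternative changed a value the cause was not tested.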
